A study of Homo sapiens with 6 samples.

Results

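The genes described here encode variant histones, the histone proteins made outside the tightly S-phase-bound pool. They were the 10 rows of the deposited gene table named H2AFX, H2AFZ, H2AFV, H2AFY, H2AFY2, H2AFJ, H3F3A, H3F3B, H1F0 and H1FX, out of 58735 genes in all. RNA-seq libraries were made from Ishikawa cells, an established line of human endometrial cancer, 48 hours after transfection with an siRNA against TCF19 (siTCF19, 3 libraries) or a negative control siRNA (siNC, 3 libraries). Both groups were the same cell line, received siRNA by lipofection and were kept in DMEM with fetal bovine serum. The labels name neither the siRNA sequences nor separate cultures behind the replicates, so the p-values rest on the spread among these libraries, which may be technical only.

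Nucleosomes are built from H2A, H2B, H3 and H4, and a linker H1 binds where DNA enters and leaves. Most histones come from clustered genes that are transcribed in S phase and end in a stem-loop without a poly(A) tail, while variant genes lie alone, are usually polyadenylated and are used through the cell cycle. Variants replace the ordinary histones at particular places: H3.3 in transcribed and heterochromatic regions, H2A.Z at promoters, macroH2A in repressed chromatin, and H2AX throughout, where its tail is phosphorylated around DNA breaks. H2A.Z is encoded by H2AFZ and H2AFV, which differ in a few residues, and H3.3 by H3F3A and H3F3B, which encode the same protein from different codons. The macroH2A genes are H2AFY and H2AFY2, and H1F0 and H1FX encode linker histones that are not tied to replication.

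The coding sequences below are shown because each pair encodes the same or nearly the same protein. Reads or read pairs that lie wholly within coding bases can be told apart between the genes of a pair only through base differences there. Coding bases are 408 of 1308 in the principal transcript of H3F3A and 408 of 2705 in that of H3F3B. They are 384 of 979 in that of H2AFZ and 384 of 752 in that of H2AFV. The H3.3 genes differed at 88 of 408 coding bases, 77 of them at the third codon position, and the H2A.Z genes at 75 of 384, 64 of them at that position. Each line gives 60 coding bases that lie within 1 exon of the gene's principal GENCODE transcript on hg38, read 5′ to 3′ on the coding strand, with bases that differ within the pair in capitals. The H3.3 stretches, coding bases 129 to 188, lie at chr1:226065656-226065715 on the plus strand and chr17:75778904-75778963 on the minus strand and differ at 13 bases. The H2A.Z stretches, coding bases 196 to 255, lie at chr4:99948881-99948940 and chr7:44835599-44835658, both on the minus strand, and differ at 14 bases.
H3F3A: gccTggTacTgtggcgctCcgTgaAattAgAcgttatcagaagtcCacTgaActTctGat
H3F3B: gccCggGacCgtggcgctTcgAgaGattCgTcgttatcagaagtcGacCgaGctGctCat
H2AFZ: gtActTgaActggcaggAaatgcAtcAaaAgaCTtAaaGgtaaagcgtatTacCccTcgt
H2AFV: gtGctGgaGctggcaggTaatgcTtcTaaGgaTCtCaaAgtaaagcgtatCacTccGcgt

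The last 30 coding bases of H2AFX before the stop codon, at chr11:119094966-119094995 on the minus strand, are shown because they encode the tail that sets H2AX apart. The capitals mark the last 4 codons, for serine, glutamine, glutamate and tyrosine, of which the serine is the residue phosphorylated after DNA breaks.
H2AFX: aagaaggccacccaggccTCCCAGGAGTAC

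Levels are given as CPM, the count relative to library size, with library sizes scaled by the trimmed mean of M values (TMM). Library totals ran from 14680022 to 15529688 counts in siTCF19 and from 14872698 to 16244705 in siNC, and the 10 genes held 0.2501% to 0.2666% of each. TCF19, the target, averaged 39.0 ± 3.69 CPM in siTCF19 and 179.5 ± 4.68 CPM in siNC (SD, n = 3 each; log2 fold change -2.20, edgeR adjusted p = 6.15e-29). Of 9 endometrial epithelial markers, EPCAM, KRT8, KRT18, KRT19, CDH1, PAX8 and SOX17 averaged 197 to 847 CPM in siTCF19 and 188 to 881 CPM in siNC. MUC1 averaged 17.87 CPM in siTCF19 and 10.99 CPM in siNC, and the oestrogen receptor gene ESR1 averaged 0.0434 CPM in siTCF19 and 0.155 CPM in siNC. By edgeR, 4 of the 8 tested markers rose, with log2 fold changes of 0.70 for MUC1, 0.61 for CDH1, 0.55 for SOX17 and 0.44 for KRT19. Falls were seen in 2, with -0.43 for KRT18 and -0.40 for KRT8. Over all tested genes, 20.7% were higher and 20.8% lower by the same test. The 4 leukocyte markers used summed to 0.193 to 0.253 CPM in siTCF19 and 0.481 to 2.31 CPM in siNC, and PTPRC and CD3E were at 0 counts in every siTCF19 library. The 4 endothelial markers summed to 13.8 to 17.3 CPM in siTCF19 and 6.56 to 6.99 CPM in siNC, most of it VWF, which rose by 1.60 on the log2 scale. CDH5 lay the other way, at 0.259 CPM in siTCF19 and 0.978 CPM in siNC (log2 fold change -1.89, edgeR adjusted p = 0.00216). PECAM1, too low to be tested, averaged 0.108 CPM in siTCF19 and 0.627 CPM in siNC without overlap, and KDR was at or near 0 in both groups. The 5 stromal markers summed to 25.1 to 29.6 CPM in siTCF19 and 16.97 to 19.16 CPM in siNC, nearly all of it COL1A1, and DCN was at 0 counts in every library. Mitochondrial counts were 3.92% to 4.08% of the total in siTCF19 and 3.49% to 3.65% in siNC. The part of these marker and mitochondrial differences in the results below was not tested.

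The comparison asks which variant histone transcripts differ when TCF19 is knocked down. H2AFV was the only one of the 10 that rose, and H3F3A, H2AFY2, H1FX and H2AFX fell. The remaining 5, H2AFZ, H2AFY, H3F3B, H1F0 and H2AFJ, did not pass the threshold, an adjusted p under 0.05 in edgeR's quasi-likelihood test with Benjamini-Hochberg adjustment over all 17299 genes tested. All 10 were among the genes tested. Of all tested genes 41.5% were called, 20.7% higher and 20.8% lower in siTCF19. The total of 5 of 10 is close to the share called among all genes, while 4 of 10 lower lies above, and 1 of 10 higher below, the share in that direction. With 10 genes chosen with results known, the split is a description and was not tested. The groups did not overlap in CPM in 7 of the 10, against 49.2% of all tested genes. The median log2 fold change was -0.09 over the 10 genes and 0.00091 over all tested genes, and the median size was 0.17 over the 10 and 0.24 over all. These are bulk samples, in which fewer cells of a type and less RNA per cell cannot be told apart.

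**Figure D1:**
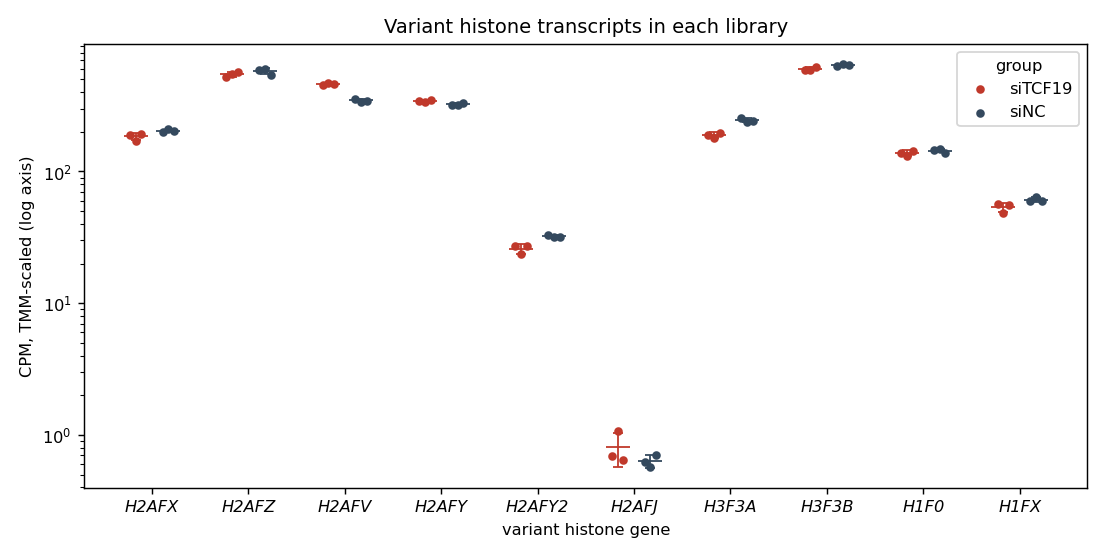
CPM of each of the 10 variant histone genes on a log axis, with a point for each library, siTCF19 in red on the left and siNC in dark blue on the right, a horizontal mark at the mean and bars of 1 SD (n = 3). H2AFV lies higher in all 3 siTCF19 libraries, H3F3A lies lower in all 3, and H2AFJ lies near 1 CPM.

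Of the H2A.Z genes, H2AFV rose and H2AFZ was not called. H2AFV (ENSG00000105968, chromosome 7, 44826791 to 44848083, minus strand) had 7132, 7038 and 7127 counts in siTCF19 and 5142, 5329 and 5377 in siNC. On the scaled level it stood at 451, 470 and 460 CPM in the siTCF19 libraries and at 353, 339 and 345 CPM in the siNC libraries. Every siTCF19 library was thus above every siNC library. H2AFV rose by 0.41 ± 0.04 on the log2 scale (SE; edgeR adjusted p = 1.78e-10), or 1.33-fold with a 95% interval of 1.25 to 1.41. The size of this change was above that of 72.3% of all tested genes.

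H2AFZ (ENSG00000164032, chromosome 4, 99948086 to 99950388, minus strand), the H2A.Z gene with more counts in every library and one whose transcript is known to follow proliferation, had 8175, 8215 and 8832 counts in siTCF19 and 8512, 9435 and 8477 in siNC. Its levels were 517, 549 and 570 CPM in siTCF19 and 585, 601 and 544 CPM in siNC. The groups overlapped, since siTCF19 replicates 2 and 3 stood above siNC replicate 3. The log2 fold change was -0.08 ± 0.05 (SE; edgeR adjusted p = 0.157), with a 95% interval of -0.17 to 0.01 that leaves out a rise of the size seen in H2AFV. Summed over the H2A.Z genes, siTCF19 libraries held 969 to 1029 CPM and siNC libraries 889 to 940 CPM, a mean 9.01% higher in siTCF19.

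The promoters of the H2A.Z genes, which RefSeq now names H2AZ1 and H2AZ2, are shown because these genes make nearly the same protein and H2AFV alone was called. The windows run from 250 bases before to 50 bases after the RefSeq start on GRCh38.p14, at chr4:99950226-99950525 and chr7:44848038-44848337, both on the minus strand, read 5′ to 3′. The capitals mark the CCAAT box, searched on both strands, so that a match on the opposite strand reads ATTGG. H2AFZ holds 3 matches and H2AFV holds 4.
H2AFZ: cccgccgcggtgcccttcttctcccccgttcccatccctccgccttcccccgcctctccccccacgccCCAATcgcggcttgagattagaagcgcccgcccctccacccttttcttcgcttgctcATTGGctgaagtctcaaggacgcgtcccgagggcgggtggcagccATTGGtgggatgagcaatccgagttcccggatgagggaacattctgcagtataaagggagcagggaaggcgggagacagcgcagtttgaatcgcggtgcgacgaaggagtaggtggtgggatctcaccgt
H2AFV: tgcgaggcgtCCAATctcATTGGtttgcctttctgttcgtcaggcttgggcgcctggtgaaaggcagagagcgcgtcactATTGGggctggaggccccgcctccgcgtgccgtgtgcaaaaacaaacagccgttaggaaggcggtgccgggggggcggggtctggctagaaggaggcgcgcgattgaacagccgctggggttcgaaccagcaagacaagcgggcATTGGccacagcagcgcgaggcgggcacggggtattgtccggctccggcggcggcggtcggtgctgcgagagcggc

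The promoter table held windows for 9 of the 10 genes, 13 windows in all, and H1F0 was not matched. CCAAT was found in 9 of the 13 windows, belonging to 7 genes, and in 34.6% of all 35116 windows of the same length. TATAAA, searched on both strands, was found in H2AFX, H2AFZ, H3F3B and H1FX and in 11.5% of all windows. TTTGAA, a cell-cycle element searched on both strands, was found in H2AFX and H2AFZ and in 15.2% of all windows. TTTCGCG and TTTGGCG, letters of the E2F type searched in the same way, had no match in the 13 windows and were found in 1.32% and 1.92% of all windows. These motifs were chosen after the changes were known, and a match describes the letters in the window only.

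The H3.3 genes both lay lower in siTCF19, by different amounts. H3F3A (ENSG00000163041, chromosome 1, 226061851 to 226072001, plus strand) had 3003, 2683 and 3064 counts in siTCF19 and 3719, 3742 and 3784 in siNC. This corresponds to 190, 179 and 198 CPM in siTCF19 and 256, 238 and 243 CPM in siNC, with no overlap. H3F3A fell by 0.38 ± 0.05 on the log2 scale (SE; edgeR adjusted p = 2.10e-08), or 1.30-fold (95% interval 1.21 to 1.39). H3F3B (ENSG00000132475, chromosome 17, 75776434 to 75785893, minus strand), the more abundant gene, stood at 593, 590 and 620 CPM in siTCF19 and 635, 653 and 640 CPM in siNC. Its groups did not overlap either, with siTCF19 replicate 3 closest to siNC. The log2 fold change of H3F3B was -0.10 ± 0.04 (SE), at an edgeR adjusted p of 0.0589 just outside the threshold. DESeq2 called it (adjusted p = 0.0200), but only 2 of 14 alternative runs did so. With library size only, the log2 fold change of H3F3B was -0.04 (edgeR adjusted p = 0.495).

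Together the H3.3 genes gave 769 to 817 CPM in siTCF19 and 883 to 891 CPM in siNC, a mean 11.1% lower in siTCF19. H3F3A has processed pseudogenes that can share its reads. Pseudogenes were found by name only, as the gene symbol followed by P and a number, so copies under other names are not covered. For H3F3A 6 are in the table, and they held 31.9% to 32.2% as many counts as H3F3A in siTCF19 and 31.3% to 34.1% in siNC. H3F3AP4 on chromosome 2 averaged 41.1 ± 3.26 CPM in siTCF19 and 55.7 ± 4.26 CPM in siNC (log2 fold change -0.44, edgeR adjusted p = 2.50e-06). H3F3AP6 on chromosome 4 averaged 19.1 ± 0.09 CPM in siTCF19 and 24.6 ± 1.33 CPM in siNC (log2 fold change -0.37, edgeR adjusted p = 0.000942). With H3F3A and its pseudogenes merged, the log2 fold change was -0.39 (edgeR adjusted p = 7.08e-09). Counts of the pseudogenes named after H2AFZ, H2AFV and H3F3B stayed under 1% of the parent gene in every library. H3F3B shares 214 exonic bases with UNK, a gene on the opposite strand with 19.6% as many counts that rose by 0.14 on the log2 scale (edgeR adjusted p = 0.0269). Whether the counting used strand is not given here, so reads from that stretch cannot be told apart.

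The macroH2A genes, whose proteins carry a large globular domain behind the histone fold, were called in 1 case, H2AFY2. This gene (ENSG00000099284, chromosome 10, 70052796 to 70112280, plus strand) had 426, 352 and 424 counts in siTCF19 and 483, 500 and 492 in siNC. Its levels were 27.0, 23.5 and 27.3 CPM in siTCF19 and 33.2, 31.8 and 31.6 CPM in siNC, with every siTCF19 library below every siNC library. H2AFY2 fell by 0.31 ± 0.08 on the log2 scale (SE; edgeR adjusted p = 0.00196), or 1.24-fold (95% interval 1.11 to 1.39). H2AFY (ENSG00000113648, chromosome 5, 135333900 to 135399914, minus strand) stood at 340, 335 and 351 CPM in siTCF19 and 322, 320 and 333 CPM in siNC. All siTCF19 libraries lay above all siNC libraries, by a small margin. The log2 fold change of H2AFY was 0.07 ± 0.04 (SE; edgeR adjusted p = 0.188), with a 95% interval of -0.02 to 0.16. With scaling by library size only, H2AFY was called higher (log2 fold change 0.13, edgeR adjusted p = 0.0112). AIFM2, on the opposite strand to H2AFY2 and sharing 11 exonic bases with it, averaged 105 CPM in siTCF19 and 97.9 CPM in siNC (log2 fold change 0.10, edgeR adjusted p = 0.214). H2AFY is known to be spliced into isoforms with different ligand binding, and isoforms were not analysed here.

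H2AFX (ENSG00000188486, chromosome 11, 119093854 to 119095467, minus strand), whose principal transcript is a single exon, had 2982, 2555 and 3007 counts in siTCF19 and 2920, 3278 and 3158 in siNC. On the scaled level it stood at 189, 171 and 194 CPM in siTCF19 and 201, 209 and 203 CPM in siNC. The groups did not overlap, and siTCF19 replicate 2 stood well below the other siTCF19 libraries. H2AFX fell by 0.15 ± 0.05 on the log2 scale (SE; edgeR adjusted p = 0.0170), or 1.11-fold (95% interval 1.03 to 1.19). The call ended without siTCF19 replicate 2 (log2 fold change -0.08, edgeR adjusted p = 0.171), without siNC replicate 2 (0.0631), with scaling by library size only (0.164) and in limma on log2(FPKM + 1) (0.0693).

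H2AFJ (ENSG00000246705, chromosome 12, 14774383 to 14778002, plus strand), an H2A variant known to accumulate in senescent human fibroblasts with lasting DNA damage, was barely detected. It had 11, 16 and 10 counts in siTCF19 and 9, 9 and 11 in siNC. The groups overlapped, and the log2 fold change of 0.34 ± 0.44 (SE; edgeR adjusted p = 0.577) had a 95% interval of -0.55 to 1.22. As a fold this interval runs from 0.685 to 2.33, so these counts do not settle the direction of H2AFJ.

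The linker histone gene H1FX (ENSG00000184897, chromosome 3, 129314771 to 129316277, minus strand) had 888, 726 and 866 counts in siTCF19 and 870, 1014 and 925 in siNC. Its levels were 56.2, 48.5 and 55.8 CPM in siTCF19 and 59.8, 64.5 and 59.4 CPM in siNC, without overlap, and siTCF19 replicate 2 was again the lowest. H1FX fell by 0.19 ± 0.07 on the log2 scale (SE; edgeR adjusted p = 0.0161), or 1.14-fold (95% interval 1.04 to 1.25). The call ended without siTCF19 replicate 2 (log2 fold change -0.12, edgeR adjusted p = 0.157), without siNC replicate 2 (0.102), with library size only (0.0993), in limma on log2(FPKM + 1) (0.0550) and in DESeq2 (0.0514). H1F0 (ENSG00000189060, chromosome 22, 37805093 to 37807436, plus strand), which is known to rise in cells that stop dividing, stood at 138, 132 and 144 CPM in siTCF19 and 145, 148 and 139 CPM in siNC. Its groups overlapped, and the log2 fold change was -0.06 ± 0.05 (SE; edgeR adjusted p = 0.367), with a 95% interval of -0.16 to 0.04. With library size only, the log2 fold change of H1F0 was 0.000103 (edgeR adjusted p = 0.999), so its direction depended on the scaling.

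**Figure D2:**
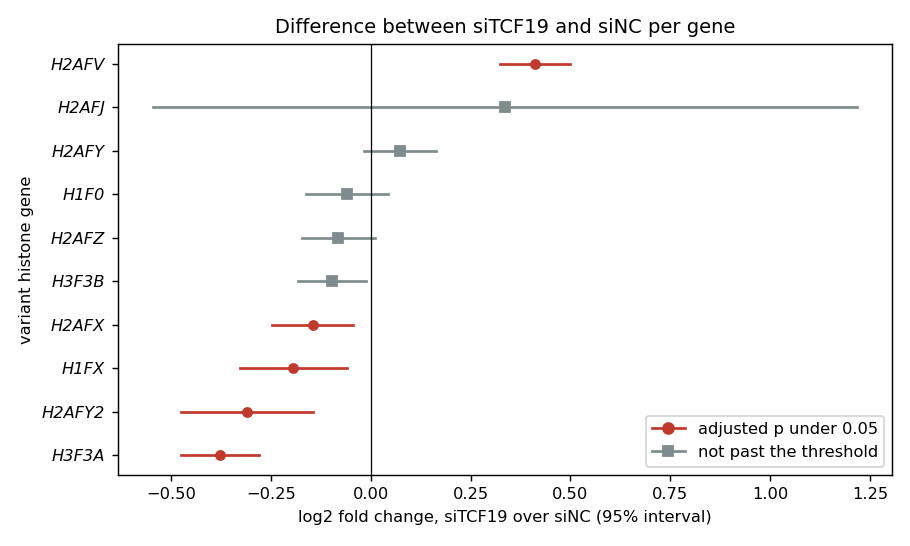
Log2 fold change of each of the 10 genes, siTCF19 over siNC, with its 95% interval from edgeR; red circles passed an adjusted p under 0.05 and grey squares did not. H2AFV is the only called gene to the right of 0, H3F3A is farthest left, and the interval of H2AFJ is the widest.

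Among the siTCF19 libraries, replicate 2 had the lowest CPM for 7 of the 10 genes, replicate 1 for 2 and replicate 3 for 1, while replicate 2 was the lowest for 34.9% of all tested genes. Without siTCF19 replicate 2 the calls were 1 higher and 2 lower, where 3420 genes were called higher and 3264 lower over the whole table. The calls in that run were H2AFV (log2 fold change 0.41), H3F3A (-0.33) and H2AFY2 (-0.24), which were called in every alternative run. In the authors' deposited table, 5 of the 10 genes are listed at an adjusted p under 0.05. The share of all genes under that threshold there was not counted. The DESeq2 run on the same counts called 2829 genes higher and 2931 lower over the whole table. The authors' table lists H3F3B under it (adjusted p = 0.0206) and not H1FX (0.0528), and its log2 fold changes rest on the same libraries.

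The balance within pairs was read as the log2 ratio of deposited FPKM, the count relative to gene length and library size, in each library, which does not depend on the scaling between libraries. An exact permutation test over 3 against 3 libraries cannot give a two-sided p below 0.1, and each of the 4 pairs reached this value, also after adjustment over the 4 pairs. The ratio of H2AFZ to H2AFV was 2.36, 2.41 and 2.56 in siTCF19 and 3.41, 3.65 and 3.25 in siNC. The log2 ratio differed by -0.49 (siTCF19 minus siNC), with means of 1.29 ± 0.06 in siTCF19 and 1.78 ± 0.08 in siNC (SD, n = 3 each; exact permutation p = 0.1). The ratio of H3F3A to H3F3B was 0.625, 0.592 and 0.622 in siTCF19 and 0.785, 0.711 and 0.740 in siNC. Its log2 value differed by -0.28, with means of -0.71 ± 0.04 in siTCF19 and -0.43 ± 0.07 in siNC (SD, n = 3 each; exact permutation p = 0.1). Within the H3.3 and H2A.Z pairs, the share of the gene on top of the ratio was thus smaller in every siTCF19 library than in every siNC library.

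The macroH2A ratio was higher in siTCF19, where the sign depends on which gene of a pair is put on top. H2AFY over H2AFY2 was 1.41, 1.59 and 1.43 in siTCF19 and 1.08, 1.12 and 1.18 in siNC. The log2 ratio averaged 0.56 ± 0.09 in siTCF19 and 0.17 ± 0.06 in siNC, a difference of 0.39 (SD, n = 3 each; exact permutation p = 0.1). H1F0 over H1FX was 1.58, 1.75 and 1.66 in siTCF19 and 1.56, 1.48 and 1.51 in siNC. This was the smallest of the 4 differences, 0.14 on the log2 scale, and the groups again did not overlap. All 4 differences kept their sign when any library was left out, with FPKM + 1 and with counts. The level of each ratio depends on the gene lengths used, while its log2 difference between groups does not. Per kilobase of the principal transcript, H2AFY was at 244 to 267 CPM and H2AFY2 at 11.9 to 16.8 CPM over the 6 libraries.

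**Figure D3:**
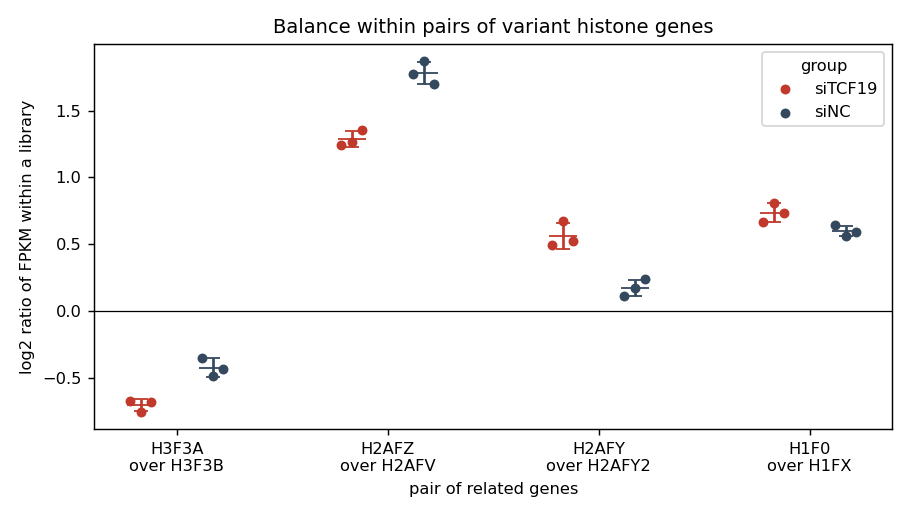
Log2 ratio of FPKM within each library for 4 pairs of variant histone genes, siTCF19 in red on the left and siNC in dark blue on the right, with the mean and SD (n = 3). The log2 ratio of H2AFZ to H2AFV averages 1.29 in siTCF19 and 1.78 in siNC, and the groups are separate in all 4 pairs. The levels of the ratios rest on the deposited gene lengths.

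Levels can be compared between genes only per length. On the FPKM scale, means in siTCF19 were 234 for H2AFZ, 113 for H2AFX, 97.0 for H3F3B, 96.0 for H2AFV, 59.5 for H3F3A, 58.4 for H1F0, 35.2 for H1FX, 19.1 for H2AFY, 12.98 for H2AFY2 and 0.237 for H2AFJ. In siNC they were 248 for H2AFZ, 125 for H2AFX, 104 for H3F3B, 77.4 for H3F3A, 72.2 for H2AFV, 61.0 for H1F0, 40.3 for H1FX, 18.2 for H2AFY, 16.1 for H2AFY2 and 0.187 for H2AFJ. The order differed between the groups in 1 place: H2AFV stood above H3F3A in siTCF19 and below it in siNC. In siTCF19 the ranges of H3F3B and H2AFV overlapped, as did those of H3F3A and H1F0, and in siNC no neighbours in the order overlapped.

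The order rests on gene length as the table gives it, which equals the union of all annotated exons. This length was 17730 bases for H2AFY, whose principal transcript has 1314, and 4749 bases for H2AFV, whose principal transcript has 752. Per kilobase of the principal transcript, a choice made after seeing the data, the 6-library mean was 573 CPM for H2AFZ, 536 for H2AFV, 254 for H2AFY and 120.3 for H2AFX, which moved below H3F3B and H3F3A. On that scale H2AFV was above H3F3A in both groups, at 600 to 625 against 137 to 151 CPM per kilobase in siTCF19 and 451 to 470 against 182 to 195 in siNC. The exchange of H2AFV and H3F3A in the order was therefore seen with the deposited lengths only. Another exchange appeared on that scale: H2AFV was above H2AFZ in siTCF19, at 600 to 625 against 528 to 582 CPM per kilobase, and below it in siNC, at 451 to 470 against 556 to 613. Which H2A.Z gene stood higher in siTCF19 thus depended on the length used.

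The clustered replication-dependent histone genes, 71 protein-coding rows named HIST1H to HIST4H, are given beside the variants. They summed to 130 to 133 CPM in siTCF19 and 97.9 to 106 CPM in siNC, while the 10 variants summed to 2499 to 2619 CPM in siTCF19 and 2538 to 2605 CPM in siNC, where the groups overlapped. Of 19 replication-dependent genes tested, 9 were called higher and 1 lower by edgeR, where 20.7% of all tested genes were higher and 20.8% lower. Their median log2 fold change was 0.38, against 0.00091 over all tested genes, and DESeq2 called 3 higher. The linker gene HIST1H1C averaged 20.3 ± 0.47 CPM in siTCF19 and 13.97 ± 0.96 CPM in siNC. HIST1H2BD averaged 12.9 ± 1.16 CPM in siTCF19 and 6.21 ± 1.10 CPM in siNC, and HIST1H2BC averaged 3.04 ± 0.27 CPM in siTCF19 and 1.44 ± 0.32 CPM in siNC. HIST1H1E was lower, at 1.29 ± 0.14 CPM in siTCF19 and 2.42 ± 0.19 CPM in siNC, a call that ended in DESeq2 (adjusted p = 0.0567). Near-identical copies can share reads among these genes. Most of their transcripts also lack a poly(A) tail, and how RNA was selected is not described here. The libraries may therefore hold only part of these transcripts. HIST1H4C, for example, had 3, 2 and 2 counts in siTCF19 and 1, 6 and 2 in siNC. The values are uncertain for these reasons, and the part of RNA selection in them was not tested.

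Variants of testis and oocyte were at or near 0. Of 11 such genes, 5 had no count in any library and none passed the filter on low counts. They summed to 0.193 to 1.54 CPM in siTCF19 and 0.0637 to 0.577 CPM in siNC, and the most abundant were H3F3C, with 4, 11 and 0 counts in siTCF19 and 1 in each siNC library, and HIST3H3, with 3, 9 and 0 counts in siTCF19 and 5, 0 and 5 in siNC.

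Histones are placed by dedicated chaperones and remodellers. With CENP-A itself, the kinases and readers of H2AX and the partners of macroH2A, they make 6 lists of 39 different genes. Of these, 18 were called, 6 higher and 12 lower, and 21 were not. The share called, 46.2%, is near the 41.5% of all tested genes. Of 7 genes of H3.3 deposition, 3 fell, 1 rose and 3 were not called (median log2 fold change -0.09, against 0.00091 over all tested genes). HIRA, which gives its name to the complex that loads H3.3 at transcribed genes, averaged 12.4 ± 0.71 CPM in siTCF19 and 17.8 ± 2.08 CPM in siNC (log2 fold change -0.53, edgeR adjusted p = 0.000125). The heterochromatin H3.3 chaperone gene DAXX averaged 66.5 ± 3.27 CPM in siTCF19 and 77.6 ± 1.23 CPM in siNC (log2 fold change -0.22, edgeR adjusted p = 0.00189). The H3-H4 chaperone gene ASF1A fell by 0.24 on the log2 scale (edgeR adjusted p = 0.00538), a call that ended without siNC replicate 1 (0.0740). UBN1, a HIRA partner, rose by 0.13 (edgeR adjusted p = 0.0211), a call that ended without siNC replicate 1 (0.120) or siTCF19 replicate 1 (0.0520).

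Of 12 genes that place or remove H2A.Z, 3 rose, 4 fell and 5 were not called (median log2 fold change -0.02). ZNHIT1, a subunit of the SRCAP remodeller that deposits H2A.Z, averaged 96.2 ± 4.51 CPM in siTCF19 and 66.3 ± 6.71 CPM in siNC (log2 fold change 0.54, edgeR adjusted p = 2.42e-09). VPS72, the H2A.Z-binding subunit, averaged 45.2 ± 2.99 CPM in siTCF19 and 54.2 ± 1.44 CPM in siNC (log2 fold change -0.26, edgeR adjusted p = 0.00140). The ATPase genes RUVBL1 and RUVBL2, shared by several remodellers, fell by 0.44 and 0.40 on the log2 scale (edgeR adjusted p = 5.55e-09 and 2.62e-08). ANP32E, a chaperone that removes H2A.Z and is named after its values were seen, averaged 199.9 ± 7.30 CPM in siTCF19 and 176 ± 5.35 CPM in siNC (log2 fold change 0.19, edgeR adjusted p = 0.00157). The catalytic subunit genes SRCAP (log2 fold change -0.15, edgeR adjusted p = 0.217) and EP400 (0.01, edgeR adjusted p = 0.925), also named afterwards, were not called.

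Of 6 chaperones of replication and of the FACT complex, 3 fell and 3 were not called (median log2 fold change -0.11). The FACT subunit genes SSRP1 and SUPT16H fell by 0.25 and 0.21 on the log2 scale (edgeR adjusted p = 6.88e-06 and 0.000180). NASP fell by 0.14 (edgeR adjusted p = 0.0125), a call that ended with library size only (0.156) and without siNC replicate 3 (0.0666). Of 5 genes of CENP-A, the centromeric H3 variant, and its loading, 1 rose and 4 were not called (median log2 fold change 0.07). It was the CENP-A chaperone gene HJURP that rose (0.15, edgeR adjusted p = 0.0271), and the call ended in 5 of 14 alternative runs. Of 7 kinases and readers of H2AX, 1 rose, 1 fell and 5 were not called (median log2 fold change -0.0025). TP53BP1, which binds chromatin at breaks, rose by 0.19 (edgeR adjusted p = 0.00310), and the ubiquitin ligase gene RNF8 fell by 0.19 (edgeR adjusted p = 0.0460), a call that ended in 9 of 14 alternative runs. Of 3 macroH2A partners, HELLS and ATRX were not called. PARP1, whose activity macroH2A restrains, averaged 309 ± 6.35 CPM in siTCF19 and 424 ± 11.4 CPM in siNC (log2 fold change -0.46, edgeR adjusted p = 1.57e-11).

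**Figure D4:**
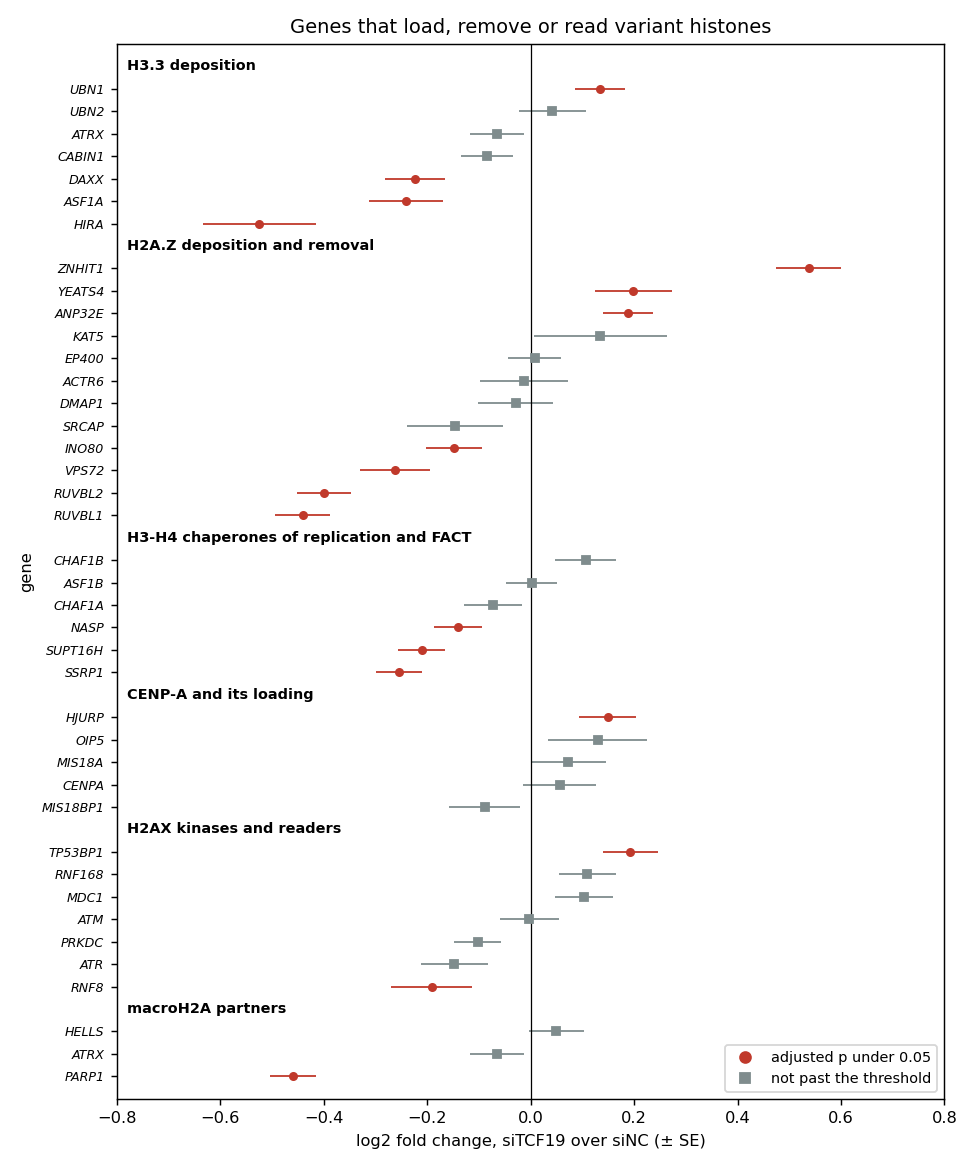
Log2 fold change, siTCF19 over siNC, with its SE, red circles at an adjusted p under 0.05 and grey squares otherwise. The 6 lists hold genes that load or remove variant histones, CENPA, H2AX kinases and readers, and macroH2A partners. HIRA is lowest in its list at -0.53 and ZNHIT1 highest in its list at 0.54, and called genes lie on both sides of 0.

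Genes that mark dividing cells are given beside the variants because some variants are known to follow proliferation. Of 7 such genes, 3 rose, 3 fell and 1 was not called (median log2 fold change -0.01), where 41.5% of all tested genes were called. These 7 genes summed to 2308 to 2385 CPM in siTCF19 and 2330 to 2342 CPM in siNC. MKI67 averaged 717 ± 29.3 CPM in siTCF19 and 798 ± 14.8 CPM in siNC (log2 fold change -0.15, edgeR adjusted p = 0.00261; 0.0568 with library size only). PCNA averaged 255 ± 2.71 CPM in siTCF19 and 294 ± 5.18 CPM in siNC, and the helicase gene MCM2 fell by 0.35 on the log2 scale (edgeR adjusted p = 3.03e-07). TOP2A and E2F1 rose by 0.27 and 0.28 (edgeR adjusted p = 1.26e-06 and 4.76e-06). The part of proliferation in the changes of variant histone genes was not tested.

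The genes whose centred log2 CPM lay closest to that of H2AFV over the 6 libraries were GM2A, SYNRG and IDS. Their mean absolute differences were 0.0128, 0.0179 and 0.0193. They rose by 0.42, 0.41 and 0.43 on the log2 scale, a likeness that follows from how they were picked.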

How the data were processed

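Ishikawa cells were profiled by RNA-seq in 3 siTCF19 and 3 siNC libraries, made from Trizol-extracted total RNA with a NEBNext Ultra kit per the labels' protocols. Per the submitters' processing notes, HISAT2 2.0.5 and featureCounts 1.5.0-p3 were used on hg38; strand setting and multi-mapped reads are not described there. The authors deposited whole-number counts and FPKM values per library and gene. The deposited table also holds, per gene, the authors' log2 fold change, p-values and a mean normalized signal of each group, from a tool not given here. All 58735 genes equalled GENCODE 29 in start, end and exon-union length, and FPKM equalled count per length per library within a relative deviation of 2.26e-07.

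Counts were filtered with filterByExpr (17299 genes, at least 99.7% of each library's counts), scaled by TMM and tested with edgeR 4.0.16 in R 4.3.3 (glmQLFit, glmQLFTest, group as the only term), adjusted by Benjamini and Hochberg over all genes tested. Intervals of fold changes are 95% intervals from the standard errors. They cover the spread between libraries and counting error only, since PCR copies cannot be recognised. Paired ratios used exact two-sided permutation tests (scipy 1.17.1). The test steps were checked on simulated data. For edgeR, 200 genes were changed there, as many up as down. Far more genes were called in these libraries, so that check does not cover the scaling between them. Alternatives were RLE scaling, library size only, DESeq2 1.42.0, a replicate block, no filter, a minimum of 1 CPM in 3 libraries, limma 3.58.1 on log2(FPKM + 1), and leaving out each library. Merging pseudogenes with their parent gene and the principal-transcript length were added after seeing the data.

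The members and lists were chosen with earlier results of these data known, and 1 marker gene of a list is not reported here. Named genes were the 10 members, TCF19, MKI67, PCNA, up to 4 called genes of lowest p per list (the 2 most abundant where none was called), overlapping genes with at least 5% of a member's counts, and 3 genes most like the member of lowest p. Sequences are from GENCODE 29 and RefSeq (GRCh38.p14), matched by gene identifier and current symbol. Figures were drawn with matplotlib 3.10.9.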

Additional observations from a re-analysis of the deposited data

How the results depend on the processing

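Under 14 alternative runs H2AFV, H3F3A and H2AFY2 were called in the same direction throughout. With library size only, the 10 genes gave 2 calls higher (H2AFV, H2AFY) and 2 lower (H3F3A, H2AFY2), the median over all genes moved to 0.06 (log2), and higher genes were 61.4% of all calls, against 49.9% with TMM. In limma on log2(FPKM + 1) there were 2 calls lower, where 2961 genes were called higher and 3110 lower over the whole table. Leaving out each library in turn gave 2 to 5 calls lower and 1 higher among the 10 genes. Over the whole table these runs called 3087 to 3331 genes lower and 3198 to 3470 higher. Among the 10 genes, 2 were lower without siNC replicate 2 or siTCF19 replicate 2. Without siTCF19 replicate 3 there were 5, H3F3B among them (edgeR adjusted p = 0.0374). DESeq2 gave 4 calls lower, with H3F3B in place of H1FX, where it called 2829 genes higher and 2931 lower over the whole table. Of 139 values of the 10 genes under alternatives, 126 kept direction and side of the threshold, 9 lost a call, 3 gained one and 1 turned, the H1F0 value of 0.000103 with library size only. H2AFJ gave no value with a filter of at least 1 CPM. The cause of these changes was not tested. No pairing by replicate number was visible: deviations of same-numbered libraries from their group means correlated at 0.009, -0.024 and 0.021. Whether same-numbered libraries were handled together is not given here, and these correlations cannot tell. With the replicate block, 3433 genes were higher and 3441 lower over the whole table, the 10 genes gave 1 call higher and 4 lower, and the log2 ratio differences were -0.28 (H3F3A over H3F3B), -0.49 (H2AFZ over H2AFV), 0.39 (H2AFY over H2AFY2) and 0.14 (H1F0 over H1FX; exact sign-flip p = 0.25, the smallest possible). HJURP and RNF8 lost their calls under the block (edgeR adjusted p = 0.0540 and 0.0702). H2AFJ and most of the clustered histone genes had few counts, which limits what their values can show. The cause of these low counts was not tested.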
